A study of Mus musculus with 16 samples.

Results

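The genes described here make, break down and sense cyclic AMP (cAMP) in primary neuronal cultures (PNCs): adenylyl cyclases, phosphodiesterases, the subunits of protein kinase A (PKA), the A-kinase anchors that tether it, the Rapgef exchange factors and the Creb transcription factors. The set was defined by gene symbol, with earlier results of these data known. Every gene named Adcy, Akap, Rapgef or Creb with a number was taken, and every Pde with a number and a letter. Prkac and Prkar genes with their subunit suffix were taken as well. This gave 63 of the 53776 genes in the table: 10 adenylyl cyclases, 24 phosphodiesterases, 2 catalytic and 4 regulatory PKA subunits, 14 anchors, 6 exchange factors and 3 Creb factors. The anchor, exchange and Creb groups are defined by name, so they hold members that do not bind cAMP themselves, and PKA partners with other names are described as separate lists.

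PNCs came from the cortex of wild-type mouse embryos at embryonic day 15. They were given 10 μM tianeptine (TIA), an atypical antidepressant, or vehicle (VEH) at day in vitro 8, and 24 h later were exposed to 3 h of oxygen-glucose deprivation (OGD), a culture model of ischemia, or to a sham procedure, and RNA was taken after 6 h of reoxygenation. The 4 groups were CONTROL-VEH (sham, vehicle; cultures 1 to 4), CONTROL-TIA (sham, TIA; cultures 5 to 8), OGD-VEH (OGD, vehicle; cultures 9 to 12) and OGD-TIA (OGD, TIA; cultures 13 to 16), with n = 4 cultures each and 16 in all. The sample labels call the vehicle cultures untreated. Stranded mRNA was sequenced in bulk, and the values are FPKM, a read density scaled to transcript length and library size, summed over the isoforms of each gene.

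As background, adenylyl cyclases make cAMP from ATP under the control of G proteins and, for some members, of calcium. Phosphodiesterases hydrolyze cAMP, cGMP or both and so set how far and how long the signal spreads. cAMP releases the catalytic subunits of PKA from their regulatory subunits, opens the exchange factors Rapgef3 and Rapgef4 (EPAC1 and EPAC2), and through PKA leads to phosphorylation of Creb1, which binds the cAMP response element in the promoters of activity-regulated neuronal genes.

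That element, the palindrome TGACGTCA, was searched for in the RefSeq promoter windows of build GRCm38.p6, which reach from 250 bases before to 50 bases after a transcript start. As a palindrome it reads the same on both strands. Windows were found for 52 of the 63 members. Of these 52, 2 held the element (3.85%), against 549 of all 27025 genes with a window (2.03%). Counted by window, it was in 3 of 97 member windows (3.09%) and in 588 of all 32851 windows (1.79%). The stretches are printed because these are the promoters in the set that carry the binding sequence of the set's own factors. They are followed by the 6 genes with the element from a list of textbook CREB targets, whose levels are reported further on. The element is in capitals, 5′ to 3′ on the strand of the gene.
Creb5: ggaatcccacgTGACGTCAccgggggggtg
Prkar1a: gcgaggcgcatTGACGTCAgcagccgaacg
Sst: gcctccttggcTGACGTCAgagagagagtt
Cartpt: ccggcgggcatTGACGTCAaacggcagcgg
Pcsk1: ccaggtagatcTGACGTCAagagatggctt
Scg2: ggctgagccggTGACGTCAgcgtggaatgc
Dusp1: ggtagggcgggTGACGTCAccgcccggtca
Areg: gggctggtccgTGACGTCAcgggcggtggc

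The Creb5 stretch lies at chr6:53287247-53287276 on the plus strand, with the element starting 45 bases before the transcript start. The Prkar1a stretch lies at chr11:109650889-109650918 on the plus strand, where it starts 49 bases before a transcript start and is shared by 2 overlapping windows of the 6 listed for the gene. Sst is at chr16:23890874-23890903 on the minus strand, with the element 48 bases upstream. Cartpt is at chr13:99900777-99900806 on the minus strand, 112 bases upstream. Pcsk1 is at chr13:75089768-75089797 on the plus strand, 78 bases upstream, and Scg2 is at chr1:79440076-79440105 on the minus strand, 68 bases upstream. Dusp1 is at chr17:26508597-26508626 on the minus strand, 143 bases upstream, and Areg is at chr5:91139527-91139556 on the plus strand, 61 bases upstream. The shorter core is TGACG or its reverse complement CGTCA, which the palindrome also contains. It was present in 18 of the 52 members (34.6%) and in 23% of all genes with a window. Counted by window, it was in 20 of 97 member windows (20.6%) and in 20.8% of all 32851 windows. The share per gene depends on the number of windows, which was 97 for the 52 members and 32851 for all 27025 genes. A match only describes the letters of the window and is not a measured binding site.

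The estimated depth was 20.7 to 25.9 M reads per culture (median 23.1 M), at which 1 read on a transcript of 1 kilobase is worth 0.0387 to 0.0482 FPKM. Cell type markers moved with OGD. Averaged over both pretreatments, 11 of 14 markers of neurons fell, none rose, and their median log2 fold change was -0.61. Among all genes, 13.7% fell and 18.8% rose in that comparison. The summed neuronal markers were 4929 to 5443 FPKM in CONTROL-VEH, 4948 to 5163 in CONTROL-TIA, 1903 to 4279 in OGD-VEH and 2690 to 4800 in OGD-TIA. Of 7 tested markers of the oligodendrocyte lineage 5 rose and Mbp fell, of 10 markers of astrocytes 3 rose and of 6 markers of dividing cells 5 rose, with summed astrocyte markers of 2101 to 2740 FPKM in CONTROL-VEH against 2537 to 5397 FPKM in OGD-VEH. Of 7 markers of inhibitory neurons, 2 rose and 2 fell. Of the microglial, endothelial and fibroblast markers, 1 gene of each list was tested in the averaged comparison and the others averaged under 0.5 FPKM. The tested fibroblast gene, Dcn, fell, from 9.93 to 14.4 FPKM in CONTROL-VEH to 2.20 to 9.65 FPKM in OGD-VEH. Of the 10 microglial markers 9, Cx3cr1 and Csf1r among them, averaged under 0.5 FPKM. All 10 together summed to 0.577 to 3.13 FPKM per culture. In bulk RNA, fewer cells of a type and less RNA per cell cannot be told apart, and this holds for every member below. The part of these marker shifts in the changes of the members was not tested.

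Of the 63 members, 52 reached a mean of 0.5 FPKM in the cultures of at least one comparison and were tested. The remaining 11 averaged under 0.5 FPKM in the cultures of every comparison. Akap4, a sperm tail anchor, was listed at 0 in all 16 cultures, and the highest values in any culture were 0.392 FPKM for Pde6g, 0.345 for Pde11a, 0.258 for Akap3, 0.18 for Pde6b, 0.173 for Pde4c, 0.159 for Adcy10, 0.111 for Pde6c, 0.107 for Adcy4, 0.038 for Pde6a and 0.029 for Akap14. Pde6a, Pde6b, Pde6c and Pde6g encode subunits of the phosphodiesterases of photoreceptors, and none of them reached the filter. Pde8a averaged at least 0.5 FPKM only in the comparison of both OGD groups. By mean level over the 16 cultures, the PKA subunits stood highest, with Prkar1b at 682 FPKM, Prkacb at 265.0 FPKM and Prkar1a at 230.3 FPKM. The highest anchor was Akap9 at 132.9 FPKM, the highest cyclase Adcy1 at 58.1 FPKM, the highest exchange factor Rapgef1 at 52.1 FPKM and the highest phosphodiesterase Pde2a at 49.4 FPKM. Of the tested members 12, Prkar1b, Prkacb, Prkar2a, Akap9 and Rapgef3 among them, drew more than 50% of their FPKM from isoforms under 1000 bases, and in these the sum rests on the estimates for short isoforms.

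The first question was what OGD does to these genes. A gene was called differentially expressed at padj ≤ 0.05 with an absolute log2 fold change of at least 1, and "rose" or "fell" is used for padj ≤ 0.05 at any size. In OGD-VEH versus CONTROL-VEH, 2 of 51 tested members were called, Pde3a upregulated and Pde8b downregulated, where 4.08% of all 16373 genes were called (2.4% up and 1.68% down). Pde4a and Prkar2b fell as well at a smaller size, so 4 members passed padj ≤ 0.05, where 8.44% of all genes did (5% up and 3.44% down). At an unadjusted p under 0.05, 28 members differed (35% of all genes), 21 of them lower (14.8%) and 7 higher (20.2%). In the same comparison 17 members lay lower in all 4 OGD-VEH cultures than in any CONTROL-VEH culture and 4 lay higher, where the shares among all genes were 9.94% lower and 12.8% higher. The median log2 fold change of the members was -0.17, and that of all genes tested was 0.10. For groups without overlap, an exact permutation test (two-sided) always gives p = 0.0286, the smallest value that 4 against 4 cultures allow. This p-value therefore adds nothing to the lack of overlap by which these members were counted.

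With the OGD effect averaged over both pretreatments, which uses all 16 cultures, 26 of 51 members passed padj ≤ 0.05, where 32.5% of all 16339 genes did. Of these, 20 fell, against 13.7% of all genes, and 6 rose, against 18.8% of all genes. The members that rose were Pde3a, Pde3b, Pde5a, Rapgef3, Akap8 and Creb5. At 2-fold, 4 members were called (4.79% of all genes, 2.78% up and 2% down): Pde3a and Rapgef3 upregulated, Adcy7 and Pde8b downregulated. In 9 members the 8 OGD and 8 CONTROL cultures did not overlap, 8 of them lower (2.41% of all genes) and Pde3a higher (3.23%), where 5.64% of all genes were free of overlap.

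**Figure D1:**
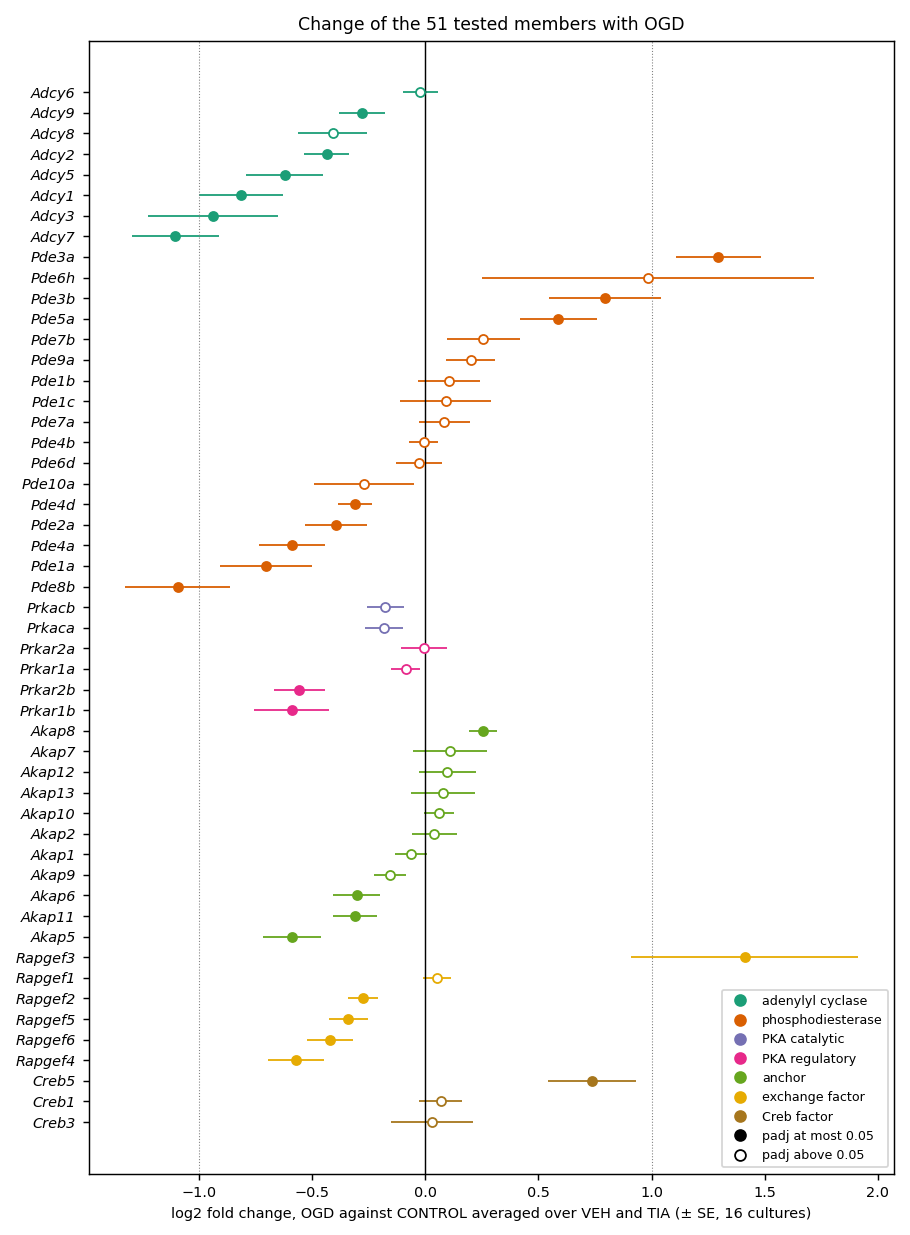
Log2 fold change of the 51 tested members with OGD, averaged over vehicle and TIA (x axis; bars are standard errors, 16 cultures), grouped by family; filled points have padj at most 0.05 and dotted lines mark a 2-fold change. The cyclases lie at or left of 0, from -0.02 for Adcy6 to -1.10 for Adcy7, while the phosphodiesterases spread from -1.09 for Pde8b to 1.29 for Pde3a.

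Most adenylyl cyclases fell. Of 8 tested, 6 fell and none rose, where 13.7% of all genes fell and 18.8% rose. The median log2 fold change averaged over both pretreatments was -0.53. Adcy7, which responds to G protein βγ subunits and protein kinase C, measured 1.195, 1.17, 1.14 and 0.95 FPKM in CONTROL-VEH against 0.58, 0.28, 0.58 and 0.18 FPKM in OGD-VEH. With TIA it measured 1.46, 1.27, 1.24 and 1.57 FPKM in CONTROL-TIA and 0.82, 0.71, 0.83 and 0.57 FPKM in OGD-TIA. Every OGD culture was therefore below every CONTROL culture, and the averaged change was -1.10 ± 0.19 (SE, padj = 0.0020), a 2.15-fold lower level. Without culture 12 the averaged change was -0.98 (padj = 0.0025), short of 2-fold. Adcy7 lies at chr8:88272403-88329962 on the plus strand of GRCm38. In OGD-VEH versus CONTROL-VEH alone the change of -1.36 had padj = 0.052. With a mean of 0.405 FPKM in OGD-VEH, Adcy7 passed the filter of 0.5 FPKM in this comparison only through CONTROL-VEH.

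Adcy1, a cyclase stimulated by calcium and calmodulin that is prominent in the cortex, was the most abundant. It measured 62.5, 72.9, 74.9 and 82.5 FPKM in CONTROL-VEH against 50.5, 37.7, 37.4 and 16.7 FPKM in OGD-VEH. In CONTROL-TIA it measured 63.8, 73.4, 71.8 and 77.5 FPKM and in OGD-TIA 53.5, 60.1, 58.9 and 35.1 FPKM. The 8 OGD cultures lay below all CONTROL cultures, and culture 12 was the lowest, as it was for most members that fell. The averaged change was -0.81 ± 0.19 (SE, padj = 0.0066). Adcy5, a calcium-inhibited cyclase, fell by 0.62 (padj = 0.015), Adcy2, which is stimulated by βγ subunits, fell by 0.44 (padj = 0.0066), and Adcy9, which is poorly sensitive to forskolin, fell by 0.28 (padj = 0.047). Adcy3, the cyclase of neuronal cilia, fell by 0.94 ± 0.29 (SE, padj = 0.023), but its cultures were scattered, from 17.3 to 57.2 FPKM in CONTROL-VEH, and after OGD with vehicle from 14.5 to 31.1 FPKM. Weighted by isoform length the change of Adcy3 was -0.42 (padj = 0.0029), and the short retained-intron isoform Adcy3-206 of 426 bases held 42.8% of its FPKM. Adcy8, the other calcium-stimulated cyclase, had -0.41 at padj = 0.052, and Adcy6, the closest relative of Adcy5, had -0.02 at padj = 0.85.

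Phosphodiesterases changed in both directions. Of 17 tested, 3 rose and 5 fell, where 18.8% of all genes rose and 13.7% fell. Pde3a, which hydrolyzes cAMP and is inhibited by cGMP, was the member with the smallest padj. It measured 1.16, 1.01, 1.23 and 1.02 FPKM in CONTROL-VEH against 1.78, 5.07, 4.24 and 4.495 FPKM in OGD-VEH. In CONTROL-TIA it measured 1.18, 1.14, 1.08 and 1.05 FPKM and in OGD-TIA 1.77, 2.20, 2.095 and 3.08 FPKM. All 8 OGD cultures exceeded all 8 CONTROL cultures, with culture 9 and culture 13 nearest to the controls. The log2 fold change was 1.64 ± 0.32 (SE, padj = 0.035) in OGD-VEH versus CONTROL-VEH and 1.29 ± 0.19 (SE, padj = 0.0010) averaged, a 2.45-fold higher level. Nearly all of it (99.8%) came from the 12302-base coding isoform Pde3a-201, and the averaged change was 1.30 when isoforms were weighted by length. The gene lies at chr6:141249269-141507448 on the plus strand of GRCm38.

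The other PDE3 gene, Pde3b, which is known for its role downstream of insulin, rose by 0.79 ± 0.25 on the log2 scale (SE, padj = 0.025), from 2.96 ± 0.27 FPKM (SD, n = 4) in CONTROL-VEH to 5.96 ± 2.098 FPKM in OGD-VEH. Culture 8 of CONTROL-TIA stood apart at 6.86 FPKM, where the other cultures of its group measured 2.77 to 2.92 FPKM. Weighted by isoform length, its averaged change was 0.42 (padj = 0.0028). Pde5a, a cGMP-specific enzyme, rose by 0.59 (padj = 0.019) at a low level, from 0.402 ± 0.053 FPKM in CONTROL-VEH to 0.802 ± 0.222 FPKM in OGD-VEH (SD, n = 4). With a mean of 0.4255 FPKM in CONTROL-TIA, both CONTROL groups were under the filter of 0.5 FPKM. Pde5a thus entered the averaged comparison only through its OGD cultures, and its place among the members that rose carries this limit.

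Pde8b, a cAMP-specific enzyme of high affinity, was the phosphodiesterase that fell most. It measured 3.76, 6.44, 3.81 and 3.28 FPKM in CONTROL-VEH against 1.95, 2.23, 1.93 and 1.38 FPKM in OGD-VEH. The values were 12.2, 4.43, 3.14 and 4.71 FPKM in CONTROL-TIA and 2.50, 2.20, 2.98 and 2.45 FPKM in OGD-TIA. The OGD and CONTROL cultures did not overlap. Culture 5 was the highest, and the averaged change was -1.09 ± 0.23 with it (SE, padj = 0.0047) and -0.90 (padj = 0.0035), short of 2-fold, without it; without culture 2 it was -0.99. In OGD-VEH versus CONTROL-VEH the change was -1.14 ± 0.25 (SE, padj = 0.041). Weighted by length the averaged change was -0.74, short of 2-fold. Pde8b lies at chr13:95024454-95250336 on the minus strand of GRCm38.

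Pde4a, a cAMP-specific enzyme sensitive to rolipram, was very even in the controls, at 17.8, 17.1, 17.0 and 17.1 FPKM in CONTROL-VEH and 16.2, 16.1, 16.3 and 16.6 FPKM in CONTROL-TIA. After OGD it measured 15.0, 8.61, 8.66 and 6.70 FPKM with vehicle and 16.1, 14.4, 14.6 and 9.12 FPKM with TIA. Cultures 9 and 13 remained close to the controls while cultures 12 and 16 were lowest, and the averaged change was -0.59 ± 0.15 (SE, padj = 0.0092). Its relative Pde4d, from the same rolipram-sensitive family, fell by 0.31 (padj = 0.0084). Pde1a, a calcium and calmodulin dependent enzyme for both cyclic nucleotides, fell by 0.70 (padj = 0.018), and Pde2a, the cGMP-stimulated enzyme, fell by 0.40 (padj = 0.038). Pde6d, a chaperone of prenylated proteins despite its name, had a change of -0.03, with a mean of 48.0 FPKM in CONTROL-VEH against 46.7 FPKM in OGD-VEH. Pde9a, a cGMP-specific enzyme, and Pde7b, a cAMP-specific enzyme, had averaged changes of 0.20 (padj = 0.16) and 0.26 (padj = 0.23).

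**Figure D2:**
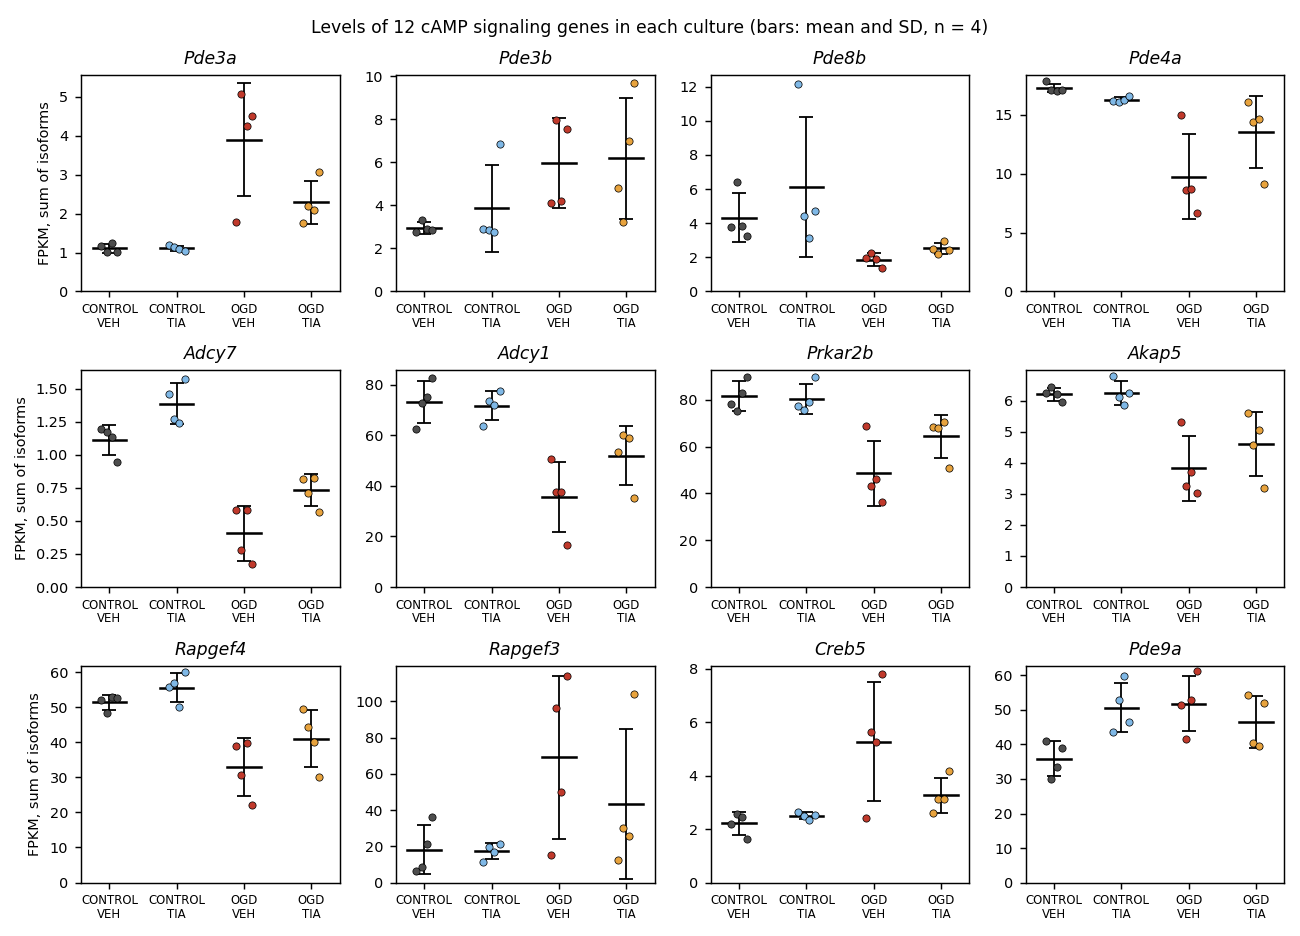
FPKM of 12 members in each of the 16 cultures (points), with the mean and SD of each group of 4 (bars); every y axis starts at 0. Pde3a lies between 1.01 and 1.23 FPKM in all CONTROL cultures and between 1.77 and 5.07 FPKM in all OGD cultures, while Rapgef3 spreads from 12.5 to 114.2 FPKM within the OGD cultures.

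Of the 6 PKA subunits, 2 fell and none rose, where 13.7% of all genes fell and 18.8% rose. Those that fell were Prkar1b and Prkar2b, the regulatory subunits known for high levels in brain. The widely expressed regulatory subunits Prkar1a and Prkar2a and both catalytic subunits did not pass the test, and differences between subunits were not tested. Prkar2b measured 78.4, 75.5, 83.1 and 90.01 FPKM in CONTROL-VEH against 68.7, 43.3, 46.3 and 36.4 FPKM in OGD-VEH. With TIA it measured 77.4, 75.7, 79.1 and 89.7 FPKM in CONTROL-TIA and 68.3, 68.0, 70.7 and 50.8 FPKM in OGD-TIA. No OGD culture reached the level of any CONTROL culture, and the averaged change was -0.56 ± 0.11 (SE, padj = 0.0040); in OGD-VEH versus CONTROL-VEH it was -0.78 ± 0.19 (SE, padj = 0.045).

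Prkar1b measured 812, 852, 832 and 820.4 FPKM in CONTROL-VEH against 696, 469.5, 472 and 258 FPKM in OGD-VEH. The corresponding values were 790.5, 751, 770.2 and 783 FPKM in CONTROL-TIA and 716, 752, 719.8 and 415 FPKM in OGD-TIA. Culture 14 overlapped the CONTROL-TIA range, and the averaged change was -0.59 ± 0.17 (SE, padj = 0.017). Of its summed FPKM, 85.2% came from isoforms under 1000 bases, and the change weighted by length was -0.54. Prkar1a, the gene with the palindrome in its promoter window, averaged 240.8 ± 7.8 FPKM in CONTROL-VEH against 228.5 ± 15.98 FPKM in OGD-VEH (SD, n = 4), an averaged change of -0.09 (padj = 0.32). Prkar2a had an averaged change of -0.00 (padj = 0.98), which turned positive when single cultures were left out. For the catalytic subunits, the averaged change was -0.18 ± 0.08 for Prkaca and -0.18 ± 0.08 for Prkacb (SE, padj = 0.10 and 0.11, unadjusted p = 0.045 and 0.048 in limma).

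Anchors changed in both directions. Of 11 tested, 3 fell and 1 rose, where 13.7% of all genes fell and 18.8% rose. The median log2 fold change averaged over both pretreatments was 0.04. Akap5, the postsynaptic anchor that binds PKA, protein kinase C and calcineurin, measured 6.25, 6.46, 6.22 and 5.95 FPKM in CONTROL-VEH against 5.33, 3.25, 3.72 and 3.02 FPKM in OGD-VEH. In CONTROL-TIA it measured 6.79, 6.12, 5.87 and 6.25 FPKM and in OGD-TIA 5.62, 4.57, 5.08 and 3.18 FPKM. The OGD and CONTROL cultures did not overlap, and the averaged change was -0.59 ± 0.13 (SE, padj = 0.0051). Akap6, the anchor of the nuclear envelope, fell by 0.30 (padj = 0.038) and Akap11, which also binds protein phosphatase 1, fell by 0.31 (padj = 0.026). Akap8, a nuclear anchor, rose by 0.25 (padj = 0.0094), from 32.9 ± 2.6 to 40.4 ± 4.1 FPKM in the vehicle cultures (SD, n = 4). Akap9, the large anchor of the Golgi and centrosome, had -0.16 (padj = 0.098). Akap7, a membrane anchor, had 0.11 (padj = 0.63) and turned to -0.11 when isoforms were weighted by length.

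Among the exchange factors for Rap, the EPAC pair had estimates of opposite sign, but the groups overlapped for Rapgef3, whose limits are given below. The difference between these genes was not tested. Rapgef4 (EPAC2), the form prominent in neurons, fell by 0.57 ± 0.12 (SE, padj = 0.0051). It measured 52.0, 48.3, 52.9 and 52.6 FPKM in CONTROL-VEH against 38.9, 30.6, 39.8 and 22.2 FPKM in OGD-VEH. With TIA the values were 55.7, 56.8, 50.0 and 60.0 FPKM in CONTROL-TIA and 49.4, 44.4, 40.1 and 30.1 FPKM in OGD-TIA, again without overlap within each pretreatment.

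Rapgef3 (EPAC1), the more widely expressed form (chr15:97744770-97767972, minus strand, GRCm38), had an averaged change of 1.41 ± 0.50 (SE, padj = 0.043). It measured 6.51, 8.48, 21.4 and 36.0 FPKM in CONTROL-VEH, 11.3, 19.8, 16.7 and 21.4 FPKM in CONTROL-TIA, 15.4, 96.6, 50.2 and 114.2 FPKM in OGD-VEH and 12.5, 30.4, 26.0 and 104.2 FPKM in OGD-TIA. Cultures 9, 13, 14 and 15 lay within the range of the CONTROL cultures, so the groups overlapped, and padj stayed at or under 0.05 in 4 of the 16 fits that left out a culture. Most of the value (83.8%) came from isoforms under 1000 bases, led by Rapgef3-206 (390 bases, 32.7% of the gene's FPKM), annotated to nonsense-mediated decay, and the noncoding Rapgef3-213 (371 bases). Weighted by length, Rapgef3 averaged 24.5 ± 9.6 FPKM in CONTROL-VEH against 62.1 ± 27.1 FPKM in OGD-VEH (SD, n = 4), and the averaged change was 0.98 (padj = 0.0091).

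Among the other exchange factors, the PDZ-domain activators Rapgef2 and Rapgef6 fell by 0.27 (padj = 0.0088) and 0.42 (padj = 0.0087), and Rapgef5 fell by 0.34 (padj = 0.011), while Rapgef1, a Rap activator recruited by the adaptor Crk, had 0.05 (padj = 0.55). In Rapgef5 all 8 OGD cultures, at 17.8 to 23.0 FPKM, lay below all CONTROL cultures, at 23.3 to 33.7 FPKM.

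Of the Creb factors, Creb5 rose and Creb1 and Creb3 did not pass the test. Creb5 measured 2.18, 2.57, 2.46 and 1.64 FPKM in CONTROL-VEH against 2.42, 5.63, 5.24 and 7.81 FPKM in OGD-VEH. In CONTROL-TIA it measured 2.65, 2.51, 2.36 and 2.52 FPKM and in OGD-TIA 2.61, 3.14, 3.12 and 4.19 FPKM. Cultures 9 and 13 lay within the CONTROL range and the other OGD cultures above it, and the averaged change was 0.74 ± 0.19 (SE, padj = 0.012); in OGD-VEH versus CONTROL-VEH the change of 1.12 had padj = 0.064. Creb1, the classical PKA substrate, averaged 19.9 ± 2.5 FPKM in CONTROL-VEH against 22.4 ± 3.4 FPKM in OGD-VEH (SD, n = 4), with padj = 0.61 for the averaged change of 0.07. Creb3, a membrane-bound factor of the endoplasmic reticulum, had 0.03 (padj = 0.91). Both signs turned under other settings.

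Outside the rule for named genes stood 13 members tested in this comparison (Adcy6, Adcy8, Akap1, Akap2, Akap10, Akap12, Akap13, Pde1b, Pde1c, Pde4b, Pde6h, Pde7a and Pde10a), which had averaged changes from -0.41 for Adcy8 to 0.99 for Pde6h, and none passed padj ≤ 0.05. Pde6h, a photoreceptor subunit, varied from 0.01 to 3.02 FPKM among the CONTROL-VEH cultures alone.

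The OGD cultures differed in how far they moved. Among the 26 members that rose or fell, culture 12 was the farthest from the controls of the OGD-VEH group in 21 and culture 9 the nearest in 19, and culture 16 was the farthest of the OGD-TIA group in 21. The median shift of these members, counted in their own direction, was 0.25 for culture 9, 0.84 for culture 10, 0.81 for culture 11 and 1.15 for culture 12, and 0.17, 0.24, 0.24 and 0.72 for cultures 13, 14, 15 and 16. The number of calls in OGD-VEH versus CONTROL-VEH varied with the culture left out, for the members as for all genes. Without culture 9, 12 members were called, 7 downregulated and 5 upregulated, where 13.3% of all genes were called. Without any other single culture, control cultures included, no member was called, and 1 to 71 of all genes were. The size of the change in the 2 called members varied less, from 1.48 to 1.97 for Pde3a and from -1.25 to -0.93 for Pde8b over these 8 fits, and padj without a culture other than culture 9 was 0.066 to 0.11 for Pde3a and 0.066 to 0.10 for Pde8b. Without culture 12 the averaged effect left 21 members at padj ≤ 0.05 (27.4% of all genes), without culture 16 also 21 (25.9%), and without both 18 (23.3%), all of them among the 26, where the share of all genes with every culture was 32.5%. At 2-fold, 2 members were called when both were left out (2.44% of all genes), with Rapgef3 at 0.95 (padj = 0.15) and Adcy7 at -0.93 (padj = 0.0036). In the 16 fits that each left out a culture, 20 of the 26 members passed padj ≤ 0.05 every time. Akap11 and Pde3b did in 13, Akap6 and Pde2a in 6, Rapgef3 in 4 and Adcy9 in 3. The fits that lost these calls had padj of 0.0501 to 0.0896. How many of all genes passed every time was not counted, and 25.9% to 40.9% of all genes passed in each single fit. Without culture 16 the values were 0.67 (padj = 0.051) for Pde3b, -0.27 (padj = 0.076) for Akap6, -0.36 (padj = 0.077) for Pde2a, 1.13 (padj = 0.087) for Rapgef3 and -0.22 (padj = 0.086) for Adcy9, and without culture 2 Akap11 had -0.29 (padj = 0.053).

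**Figure D3:**
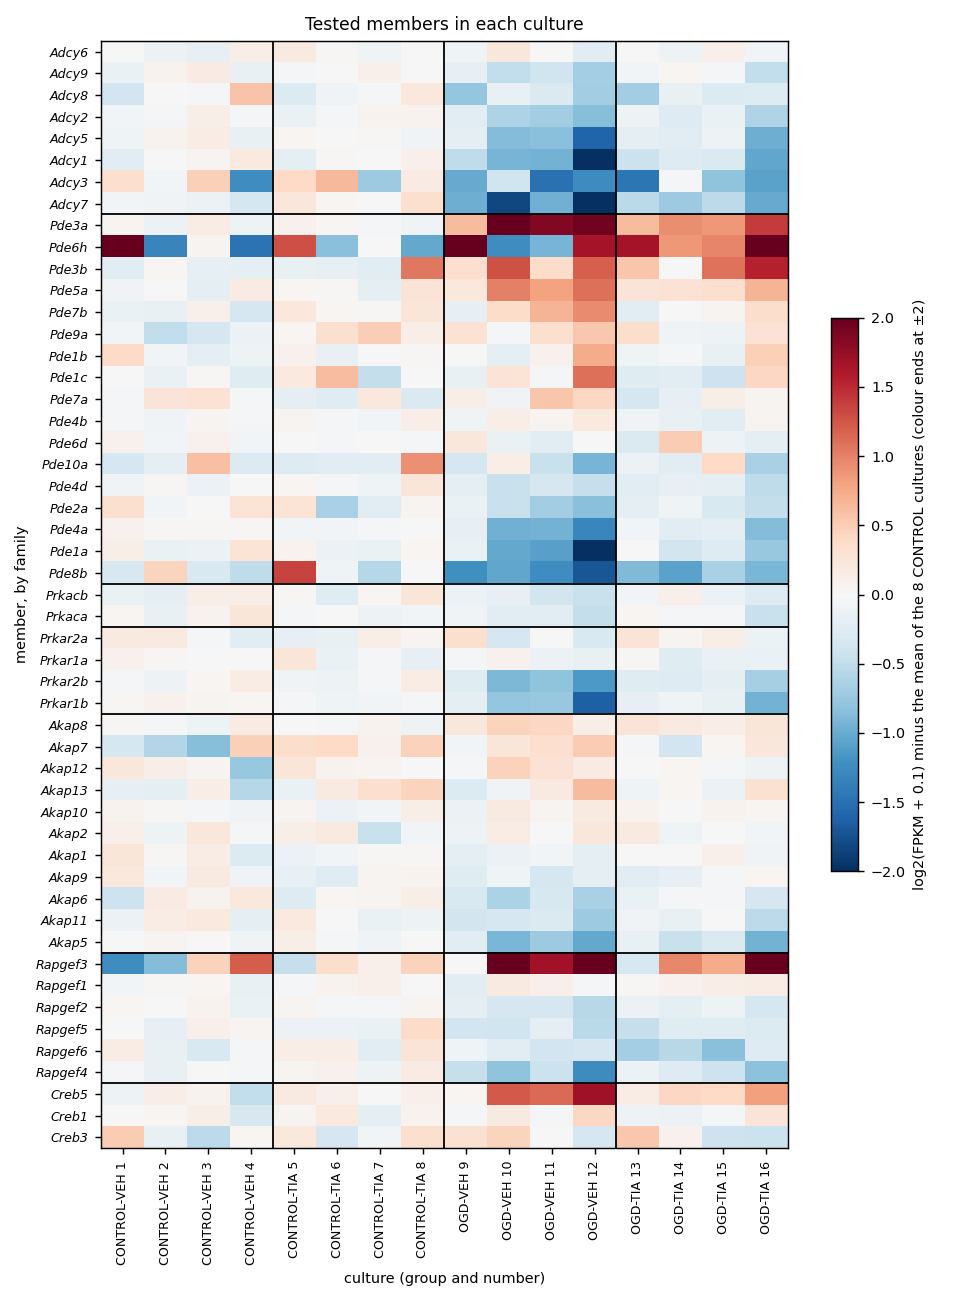
Each tested member (rows, by family) in each culture (columns, by group), as log2(FPKM + 0.1) minus the mean of the 8 CONTROL cultures; red is higher and blue lower, with colours ending at ±2. Cultures 12 and 16 show the deepest colours of their groups and culture 9 the palest of the OGD-VEH group, with median shifts of 1.15, 0.72 and 0.25 over the 26 members that rose or fell.

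The next question was whether TIA alters these genes. In CONTROL-TIA versus CONTROL-VEH no member and no other gene was called by limma among 16193. An unadjusted p under 0.05 was found for 3 of 50 members (3.85% of all genes), Pde9a and Akap7 higher (1.81%) and Prkar1b lower (2.04%). Pde9a measured 40.9, 29.9, 33.6 and 39.1 FPKM in CONTROL-VEH against 43.6, 52.8, 59.7 and 46.5 FPKM in CONTROL-TIA. These groups did not overlap, but the change of 0.50 ± 0.14 (SE) had padj = 0.999 over all genes, and the change was 0.36 when isoforms were weighted by length. Of the 50 members 4 had no overlap, Adcy7 and Pde9a higher with TIA (0.963% of all genes) and Pde4a and Prkar1b lower (1.11%), where 2.07% of all genes had none. Prkar1b differed by -0.10 and Pde4a by -0.09, both within a narrow spread. Akap7 had 0.65 at padj = 0.999, with overlapping groups.

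In OGD-TIA versus OGD-VEH no gene of 16377 was called by limma, although 406 were with array weights, none of them a member. With those weights 3 members passed padj ≤ 0.05 (9.35% of all genes), Pde4a at 0.70 (padj = 0.047), Prkar2b at 0.57 (padj = 0.047) and Pde3a at -0.99 (padj = 0.047). An unadjusted p under 0.05 was found for 1293 genes (7.9%, 2.86% higher and 5.03% lower), and among 52 members for Akap6 alone, at 0.34 (padj = 0.55). No member was free of overlap between these groups, against 3.79% of all genes. The interaction, which asks whether the OGD effect differs between TIA and vehicle, called no gene of 16339 in limma, with or without array weights. At an unadjusted p under 0.05 there were 990 genes (6.06%) and 3 members, all with negative values (3.39%). The 5 members with the smallest interaction p were Pde9a (-0.65 ± 0.22, SE), Akap7 (-0.94 ± 0.33), Rapgef6 (-0.48 ± 0.20), Pde7b (-0.66 ± 0.32) and Pde4a (0.59 ± 0.29), all with padj = 0.72.

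In OGD-TIA versus CONTROL-TIA no gene of 16270 was called by limma, but 80 were with array weights and 61 with length weighting, none of them a member. At padj ≤ 0.05 Pde3a (0.86, padj = 0.040) and Rapgef6 (-0.72, padj = 0.049) passed with array weights (1.16% of all genes), and Pde3a with length weighting (0.96, padj = 0.049; 1.65% of all genes). An unadjusted p under 0.05 was found for 3178 genes (19.5%) and for 14 of 51 members, 11 of them lower (7.91% of all genes) and 3 higher (11.6%). Pde3a had 0.95 ± 0.19 (SE, padj = 0.11), Adcy7 -0.85 ± 0.19 (padj = 0.12) and Rapgef6 -0.66 ± 0.16 (padj = 0.12). Of these 51 members 12 were lower and 2 higher without overlap, against 6.71% and 9.5% of all genes. The point estimate of the OGD change was smaller with TIA than with vehicle in 24 of the 26 members that rose or fell, the exceptions being Adcy3 and Rapgef6, and the same was true of 88.7% of all genes at padj ≤ 0.05. The sign of the estimate was the same with and without TIA in all 26, and in 5236 of 5255 genes at padj ≤ 0.05. As these genes were selected by the average of both estimates, a shared sign was largely set by the selection. Since the interaction called none of the 26, a difference of the OGD effect was not shown for any single member.

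**Figure D4:**
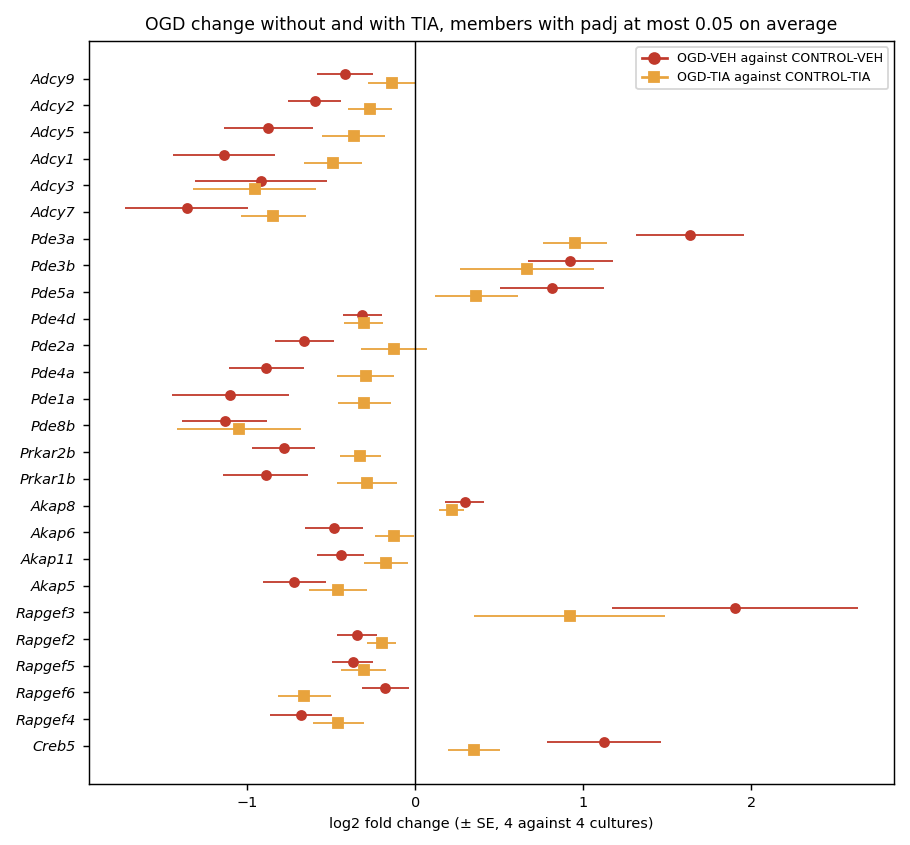
Log2 fold change with OGD (x axis; bars are standard errors, 4 against 4 cultures) in vehicle cultures (circles) and TIA cultures (squares), for the 26 members with padj at most 0.05 in the averaged comparison. The TIA estimate lies nearer to 0 in 24 of the 26, such as 0.95 against 1.64 for Pde3a, and no interaction passed the test.

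Isoforms were tested singly as well. Of 201 member isoforms tested in OGD-VEH versus CONTROL-VEH, 1 was called (0.141% of all isoforms): Rapgef3-202 (781 bases, retained intron), which averaged 0.001 FPKM in CONTROL-VEH against 7.33 FPKM in OGD-VEH and measured 3.03 FPKM in culture 5 of CONTROL-TIA. In OGD-TIA versus CONTROL-TIA 1 of 197 was called (0.0305% of all isoforms), the retained-intron isoform Pde9a-214 of 638 bases. It averaged 9.94 FPKM in CONTROL-TIA and 0.00 FPKM in OGD-TIA, but within CONTROL-VEH it was at 0 in 2 cultures, at 0.385 FPKM in culture 4 and at 6.73 FPKM in culture 1, and within OGD-VEH it was at 11.4 FPKM in culture 12 and at 0 in culture 11. This isoform thus ranged from 0 to several FPKM among cultures of the same group. Each called isoform passed the filter of 0.5 FPKM only through the group where it was high. For Rapgef3-202 this was OGD-VEH and for Pde9a-214 CONTROL-TIA, and both calls carry this limit. Of the 201 member isoforms, 32 did not overlap between OGD-VEH and CONTROL-VEH (13.4% of all isoforms), and of the 197, 15 did not overlap between OGD-TIA and CONTROL-TIA (9.07%).

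**Figure D5:**
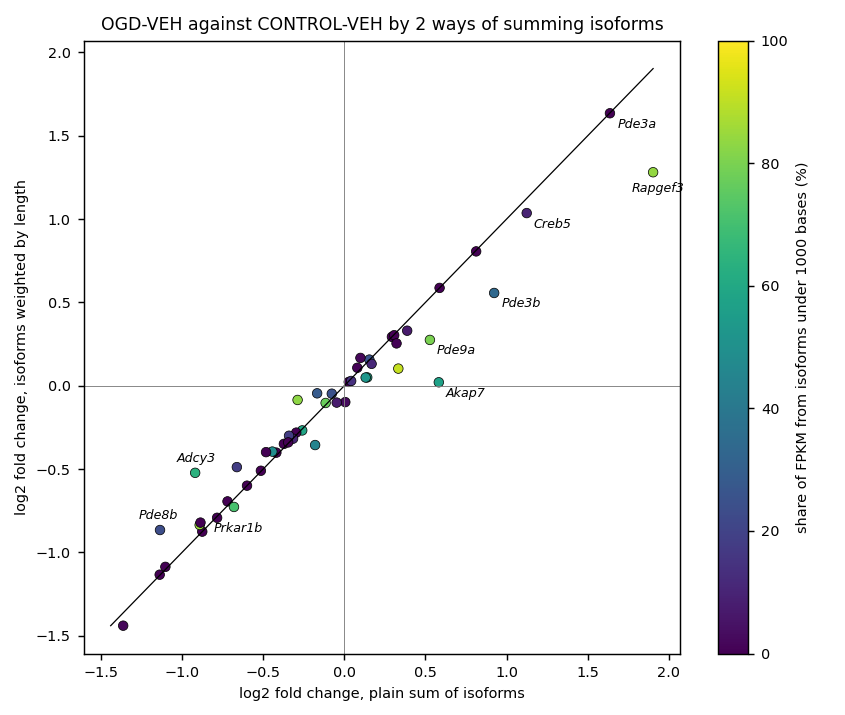
Log2 fold change of each tested member in OGD-VEH versus CONTROL-VEH with isoforms summed plainly (x axis) and weighted by length (y axis); colour is the share of FPKM from isoforms under 1000 bases and the line marks equality. Most members lie near the line, Pde3a at 1.64 on both axes, while Rapgef3 moves from 1.90 to 1.28, Akap7 from 0.58 to 0.02 and Pde8b from -1.14 to -0.87.

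The rest of the pathway was described with gene lists outside the name pattern. The background for the counts of each list is that 13.7% of all genes fell and 18.8% rose in the averaged comparison. Of 9 listed genes, namely 8 G protein subunits and Rgs2, a regulator of G protein signaling, 6 fell and 1 rose in the averaged comparison. Rgs2, which is also in the list of CREB targets, was among those that fell (-0.33, padj = 0.043). Gnao1, the abundant neuronal α subunit, fell by 0.55 ± 0.09 (SE, padj = 0.0019), and so did Gnai1 (-0.44, padj = 0.011), Gng2 (-0.38, padj = 0.012) and Gnal, the stimulatory α subunit of olfactory and striatal neurons (-0.54, padj = 0.022). Gnai3, an inhibitory α subunit found in many cell types, rose by 0.39 ± 0.06 (SE, padj = 0.0014). Of 14 tested receptors coupled to the stimulatory G protein, 6 fell and 1 rose. Vipr2, a receptor for vasoactive intestinal peptide, rose by 2.25 ± 0.50 (SE, padj = 0.0058), with 0.59 to 1.03 FPKM in CONTROL-VEH and 1.06 to 1.79 FPKM in CONTROL-TIA. Its OGD-VEH cultures measured 2.46, 7.19, 8.02 and 26.3 FPKM, and culture 16 measured 22.7 FPKM against 2.17 to 2.36 FPKM in the other OGD-TIA cultures. The serotonin receptor Htr7 fell by 1.08 (padj = 0.0035) and the orphan receptor Gpr6 by 0.64 (padj = 0.0052).

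Of 8 tested genes from a list of cAMP-gated channels, other sensors and related genes such as Rap1b and Rapgefl1, 4 fell and none rose. Those that fell were led by the pacemaker channel Hcn3 (-0.90 ± 0.17, SE, padj = 0.0026), with Rapgefl1 at -0.86 (padj = 0.0096). Of 9 tested PKA inhibitors, substrates and phosphatase regulators, 3 fell and 2 rose. Pkia, the PKA inhibitor peptide of neurons and muscle, fell by 0.57 (padj = 0.0051) and Prkx, a kinase closely related to the PKA catalytic subunits, rose by 0.49 (padj = 0.0047). Of 11 tested anchors with other names, 3 fell and 3 rose, among them Nbea at -0.44 (padj = 0.011), a neuronal anchor of vesicle traffic, and Ezr at 0.90 (padj = 0.016), which links membranes to actin.

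Of 17 relatives, coactivators and coactivator kinases of CREB, 6 rose and 2 fell. Crem, whose products include inducible repressors of the same element, rose by 0.58 (padj = 0.033) and was called in OGD-VEH versus CONTROL-VEH at 1.19 ± 0.24 (SE, padj = 0.036). The coactivator Crtc2 rose by 0.32 (padj = 0.016), and Fhl2, a LIM-domain coactivator, fell by 0.66 (padj = 0.0068). Of 25 tested textbook CREB targets, 4 rose and 6 fell, and their median was 0.07 against 0.08 for all genes. Sst, the somatostatin gene and a classical carrier of the palindrome, measured 363, 222, 206 and 329.6 FPKM in CONTROL-VEH against 180.6, 39.8, 38.9 and 52.1 FPKM in OGD-VEH, and 367, 226, 213 and 304 FPKM in CONTROL-TIA against 190.4, 96.6, 108.5 and 72.4 FPKM in OGD-TIA. It fell in every OGD culture relative to every CONTROL culture, by 1.72 ± 0.30 (SE, padj = 0.0021). Sst also marks a class of inhibitory neurons, and Lhx6, a marker of the same lineage, fell by 1.26 (padj = 0.0085), while Dlx2, which marks interneurons and their progenitors, rose by 0.76 (padj = 0.0087). Their part in the fall of Sst was not tested.

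Other carriers of the palindrome went different ways. Cartpt rose by 1.52 ± 0.35 (SE, padj = 0.0073), from 0.26 to 1.17 FPKM in CONTROL-VEH to 2.51 to 3.10 FPKM in OGD-VEH, while the TIA groups overlapped, at 0.619 to 2.51 FPKM and 0.838 to 4.18 FPKM. Pcsk1, a prohormone convertase, fell by 0.68 (padj = 0.017), and Scg2, a secretory granule protein, had 0.28 (padj = 0.099). Dusp1, a phosphatase of MAP kinases, fell by 0.36 (padj = 0.021), and Areg, an EGF receptor ligand, stayed under the filter at 0.287 FPKM or less. The palindrome was present in 6 of the 20 listed targets with a promoter window, and in the receptor gene Gpr6 and the Rap gene Rap1b of the other lists. The immediate early gene Fos rose by 1.49 ± 0.27 (SE, padj = 0.0022), with 1.68 to 3.89 FPKM in CONTROL-VEH against 5.08, 23.2, 10.4 and 10.1 FPKM in OGD-VEH, and with 1.57 to 2.44 FPKM in CONTROL-TIA against 2.95 to 5.83 FPKM in OGD-TIA.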

How the data were processed

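PolyA-selected RNA of 16 cultures was measured by stranded RNA-seq (single-end, 50 bases). Deposited were FPKM values per isoform, which the authors obtained with eXpress from STAR alignments (GRCm38, Ensembl 92). That they are TMM-scaled is taken from the name of the table. As the values are not counts, the authors' DESeq2 test was not repeated. Of 135276 lines, 74 had no identifier and were left out, holding at most 0.0594% of a culture's FPKM. Symbols and positions follow GENCODE M21 (99.9% of isoforms found).

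FPKM were summed per gene, and log2(FPKM + 0.1) was tested with limma 3.58.1 (R 4.3.3; empirical Bayes with a trend) for genes averaging 0.5 FPKM or more in the cultures of the fit, with Benjamini-Hochberg adjustment over all genes. Fold changes are on this scale, which understates changes of low genes. Pairwise comparisons used 8 cultures, and the averaged OGD effect and the interaction all 16. The script was tested on simulated data. Depth was estimated from the value of 1 read in 17654 genes with a single isoform, so it is approximate. Length-weighted levels weight each isoform's FPKM by its length.

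The cultures were deposited as separate samples; the labels do not say whether they came from separate preparations, so p-values measure the spread between these cultures. The members and gene lists were chosen with earlier results of these data known. Values are given for members at padj ≤ 0.05 in any comparison, the 3 most abundant of each family, all PKA subunits and Creb factors, and the 5 with the smallest interaction p; of other lists, for up to 5 genes with the smallest padj and, added after the data were seen, for the carriers of the palindrome and a few markers. Alternatives were another pseudocount, filter, scaling (median ratios), array weights, robust fits, length weighting, single isoforms, all cultures in 1 fit, and leaving out each culture. No reference for protein sequences was used here.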

Additional observations from a re-analysis of the deposited data

Results flagged for a closer look

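In 10 of the 152 groups of 4 cultures of the described members, the lowest or highest culture stood apart from the others by more than Dixon's 95% critical value, which chance alone would do in about 1 of 20 groups. Culture 16 accounted for 5 of them in OGD-TIA: Adcy5 (12.1 FPKM, others 20.5 to 22.1), Pde4d (13.1, others 15.9 to 16.5), Prkar1b (415, others 716 to 752) and Prkar2b (50.8, others 68.0 to 70.7) were low, and Pde5a (0.717, others 0.514 to 0.547) was high. Culture 8 of CONTROL-TIA was high for Pde3b (6.86 FPKM, others 2.77 to 2.92) and Rapgef5 (33.7, others 23.7 to 24.0). Culture 13 of OGD-TIA was low for Rapgef5 (18.8, others 21.5 to 21.9). In CONTROL-VEH, culture 1 was high for Pde4a (17.8, others 17.0 to 17.1) and culture 2 for Pde8b (6.44, others 3.28 to 3.81).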

How the results depend on the processing

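No paired analysis was run, because the labels number the cultures 1 to 16 across the groups and state no pairing. Whether cultures of different groups share a preparation is therefore unknown. The tests ignore any such pairing. The 2 calls in OGD-VEH versus CONTROL-VEH (4.08% of all genes) became 1 with a pseudocount of 1 (3.1%), 0 without a filter (0.11%), 7 with array weights (11.8%), 5 with length weighting (6.57%), 6 with all cultures in 1 fit (8.53%) and 1 with single isoforms (0.141% of isoforms), and 0 to 12 when a culture was left out (1 to 2187 of all genes). For OGD-TIA versus CONTROL-TIA the count of 0 became 1 with single isoforms. The 4 calls of the averaged comparison (4.79% of all genes) became 1 with a pseudocount of 1 (2.4%), 2 with length weighting (3.5%), 2 (2.44%) without cultures 12 and 16 (an alternative chosen after seeing the data), and 2 to 5 when a culture was left out. Of the 26 members at padj ≤ 0.05 (32.5% of all genes), 25 were shared with length weighting, which lost Pde2a and added Adcy8. With length weighting 26 members passed, where 45.5% of all genes did. Median-ratio scaling also shared 25 and lost Rapgef3, with 27 members in all, where 31.3% of all genes passed. With array weights 27 members passed, where 43.1% of all genes did. Signs turned only for values near 0: with median-ratio scaling Rapgef1 had -0.039 in OGD-VEH versus CONTROL-VEH and -0.0084 averaged, and Creb3 -0.03. Akap7 had -0.11 with length weighting. Creb1 had -0.017 with array weights and -0.023 without cultures 12 and 16, where Prkar2a had 0.065. With a culture left out, averaged values ranged from -0.069 to 0.12 for Creb3, -0.11 to 0.018 for Pde6d and -0.071 to 0.039 for Prkar2a, and in OGD-VEH versus CONTROL-VEH from -0.020 to 0.32 for Creb3, -0.13 to 0.017 for Pde6d and -0.014 to 0.12 for Rapgef1. Members under 1 FPKM rest on few reads at this depth. The cause of these changes was not tested.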
